A study of Homo sapiens with 7 samples.

Results

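The ATP-binding cassette (ABC) transporters that carry drugs out of cells were followed in NCI-H520 cells selected with puromycin. NCI-H520 is an established cell line grown from a squamous lung carcinoma of human origin. The 8 genes ABCB1, ABCC1, ABCC2, ABCC3, ABCC4, ABCC5, ABCC10 and ABCG2 were matched by the transcript accession of each probe, among 19063 genes that could be named. They were read by 13 of the 42405 gene probes on the array, and every one of these probes is reported.

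Expression was measured on Agilent single-colour microarrays, 7 in all and 1 per group, so no single shRNA has a replicate check. Cells in 6-well plates received 6 µg of pLKO.1 plasmid with cationic liposomes (Xfect). The plasmids were the empty vector, a non-target shRNA without homology to known genes, or an shRNA against 1 of 5 deadenylases: NOC (nocturnin, encoded by NOCT), PARN, CNOT6, CNOT6L or CNOT7. Deadenylases are enzymes that shorten the poly(A) tails of mRNAs. Puromycin at 6 µg/mL was added 12 h after transfection, total RNA was taken at 72 h, and 0.2 µg of it was labelled with Cy3. All 7 groups carry this selection, the controls included. Untransfected wild type cells were not analysed here, so no value bears on puromycin against no puromycin. The labels give the CNOT6L and NOC shRNAs the same target accession.

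ABC transporters are membrane proteins that bind and hydrolyse ATP to move substrates across the membrane. ABCB1 (P-glycoprotein), ABCG2 (breast cancer resistance protein) and the ABCC or multidrug resistance-associated proteins are known for pumping drugs out of tumour cells, which lowers the dose that reaches the target. Puromycin, an aminonucleoside that ends growing peptide chains, is a known substrate of ABCB1, and resistance to it comes here from the acetyltransferase gene of the pLKO.1 plasmid.

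All 7 arrays lay on 1 slide and were scanned together. Slide row 1 held the arrays of both controls and of the PARN and CNOT6 shRNAs. Slide row 2 held those of the NOC, CNOT7 and CNOT6L shRNAs. Row 2 has no control, so its position and its 3 shRNAs cannot be told apart. The image of the NOC shRNA array was extracted later than the others. The 75th percentile of signal ranged from 1366 to 3986 and the share of probes above background from 82.0% to 91.4%. The empty vector array stood apart among dim probes, with 17.4% of probes at least 2-fold higher and 0.718% at least 2-fold lower than on the non-target array, and none of the 13 member probes passed in either direction. Targeted mRNAs on the arrays of their own shRNAs were at 45.8% of the control mean for PARN, 50.4% and 54.2% for CNOT7, 57.1% and 63.0% for CNOT6L, 74.3% for NOCT and 89.6% for CNOT6. For NOCT the log2 difference was -0.64 against the empty vector and only -0.22 against the non-target array. Of 12 squamous markers, 7 were above background on every array, and TP63, KRT5, KRT14, DSG3 and CLCA2 were not. SOX2 alone of the 12 lay above the 75th percentile on every array. All 5 simple epithelial markers were above background, and 4 of them (EPCAM, KRT8, KRT18 and KRT19) lay above that percentile on every array. Being above background did not separate cell types. It also held for 4 of 5 adenocarcinoma, 5 of 5 neuroendocrine, 5 of 5 leukocyte and 6 of 9 stromal markers, and the leukocyte marker CD14 lay above the 75th percentile. The markers do not settle identity, so the cells are called by the name of the line.

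Levels are log2 processed signals from which the array's 75th percentile was subtracted, so that 0 is a signal brighter than 75% of gene spots. In these bulk samples, fewer cells of a kind and less RNA per cell cannot be told apart. Levels of different probes are not compared, because each probe has its own brightness. A probe was called when it differed at least 2-fold, in 1 direction, from both control arrays. All 13 member probes were above background on all 7 arrays, where 33742 of all probes were.

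Of the 8 genes, ABCB1 had the widest change seen by more than 1 probe, and the sequences before its annotated starts are shown for that reason. RefSeq lists 2 start windows on build GRCh38.p14, both on the minus strand of chromosome 7. The 250 bases before each start are given 5′ to 3′ on the gene's strand, with the CCAAT box in capitals, searched as CCAAT and as its reverse complement ATTGG.
ABCB1 upstream start, chr7:87713296-87713545: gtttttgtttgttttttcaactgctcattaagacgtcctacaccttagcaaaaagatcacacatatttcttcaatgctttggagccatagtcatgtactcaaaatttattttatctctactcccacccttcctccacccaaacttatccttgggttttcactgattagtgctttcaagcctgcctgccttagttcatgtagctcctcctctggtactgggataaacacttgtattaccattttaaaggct
ABCB1 downstream start, chr7:87600885-87601134: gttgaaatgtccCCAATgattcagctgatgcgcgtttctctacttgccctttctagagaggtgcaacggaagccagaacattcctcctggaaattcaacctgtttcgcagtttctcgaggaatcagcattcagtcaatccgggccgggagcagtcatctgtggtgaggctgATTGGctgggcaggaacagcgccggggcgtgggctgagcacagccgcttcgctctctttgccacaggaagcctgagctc
The downstream window held CCAAT beginning 238 bases and ATTGG beginning 79 bases before the start, and the upstream window held neither. Among all 35116 promoters of this length, 32.0% held either form. The GC box, searched as GGGCGG and CCGCCC, was in neither ABCB1 window and in 42.6% of all promoters. Of the 6 member genes with an entry, those other than ABCB1 held no CCAAT box, and a GC box was in the window of ABCC5, in 1 of 2 windows of ABCC10 and in 2 of 5 windows of ABCG2. ABCC1 and ABCC3 have no entry in the table. These matches describe the letters in the windows, and binding was not measured.

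ABCB1 mRNA was higher on all 3 arrays of slide row 2 than on all 4 arrays of slide row 1, by both of its probes. Probe A_23_P82523 is printed on 10 spots of each array. Its level was -4.53 with the empty vector, -4.35 with the non-target shRNA, -5.05 with the PARN shRNA and -4.58 with the CNOT6 shRNA. It was -3.22 with the CNOT6L shRNA, -3.37 with the CNOT7 shRNA and -3.31 with the NOC shRNA. The lowest array of row 2 thus lay 0.98 log2 above the highest array of row 1. The 40 spots of row 1 lay between -5.41 and -4.03 and the 25 spots used of row 2 between -3.46 and -2.97, so that no spot overlapped. The SD between spots of an array ran from 0.04 to 0.29. Processed signals of the probe were dim, at 56.9 to 388. Spots of an array share 1 RNA and show printing error only.

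**Figure D1:**
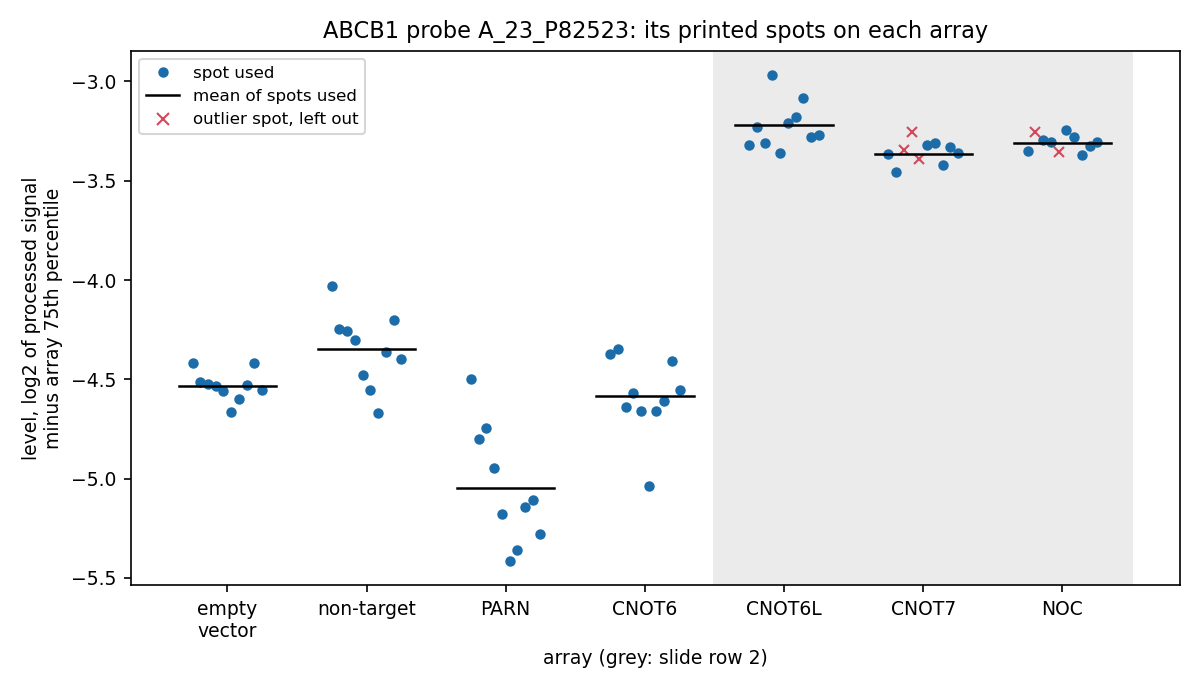
Levels of ABCB1 probe A_23_P82523 at each of its 10 printed spots (y axis, log2 of processed signal minus the array's 75th percentile) on the 7 arrays (x axis), with slide row 2 shaded, black lines for the mean of spots used and crosses for 3 spots on the CNOT7 and 2 on the NOC shRNA array that the software marked as outliers. All spots of the CNOT6L, CNOT7 and NOC shRNA arrays sit above all spots of the other 4 arrays.

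The other ABCB1 probe, A_33_P3332414, is printed on 1 spot and carries the same transcript accession. Its level was -5.80 with the empty vector and -5.96 with the non-target shRNA, then -6.21 and -5.65 with the PARN and CNOT6 shRNAs. Its levels with the CNOT6L, CNOT7 and NOC shRNAs were -4.97, -5.06 and -5.08. The order was that of the first probe in that the 3 arrays of row 2 were the highest and the PARN shRNA array the lowest, and the correlation of the probes over the 7 arrays was r = 0.96, given as a description. Its processed signals were between 27.3 and 119.

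Against the empty vector and the non-target array, A_23_P82523 differed by 1.31 and 1.13 with the CNOT6L shRNA and by 1.22 and 1.04 with the NOC shRNA, and was called higher in both. With the CNOT7 shRNA the differences were 1.17 and 0.98, the latter just short of 2-fold, and the probe was not called. With the PARN shRNA they were -0.52 and -0.70, and with the CNOT6 shRNA -0.05 and -0.24, within 2-fold. The control arrays differed from each other by -0.18. These were the only member probes called higher: 1 of 13 with the CNOT6L shRNA, where 0.295% of all probes were called higher, and 1 of 13 with the NOC shRNA, where 0.535% were. No member probe was called higher with the PARN, CNOT6 or CNOT7 shRNAs, against 0.319%, 0.419% and 0.409% of all probes. The second ABCB1 probe differed by 0.84 and 0.99 with the CNOT6L, 0.74 and 0.90 with the CNOT7 and 0.73 and 0.88 with the NOC shRNA, in the same direction but within 2-fold. With normexp background correction the mean differences of A_23_P82523 became 0.86 and 0.82 with the CNOT6L and NOC shRNAs, and neither was called. With quantile normalization it was 1.27 with the NOC shRNA, higher than the 1.13 without it, but not 2-fold against each control, so that this call was lost.

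Within slide row 2, ABCB1 barely differed, as the 3 levels of A_23_P82523 had an SD of 0.07 (n = 3) and a largest difference of 0.14. No member probe differed 2-fold from both row mates on the CNOT6L, CNOT7 or NOC shRNA array, against 1.29%, 0.343% and 0.492% of all probes. Within slide row 1, which holds both controls, its 4 levels had an SD of 0.30 (n = 4) and the PARN shRNA array was the lowest.

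The rows were compared directly by limma, a contrast added after the values were seen, so its p-values serve as a description. The spread in this fit is that between different plasmids within a row. It does not measure repeated transfections or slides. ABCB1 was higher in row 2 by 1.33 log2 (SE 0.19), or 2.51-fold, for A_23_P82523, with a limma adjusted p of 0.00771. For A_33_P3332414 the difference was 0.87 (SE 0.21), or 1.83-fold, with a limma adjusted p of 0.0435. These 2 were the only member probes of 13 to pass as higher, where 2.42% of all tested probes did, and no member passed as lower, where 4.45% did. Row 2 and row 1 did not overlap for the 2 ABCB1 probes in the higher direction, where 8.71% of all probes did so, and for ABCC1 in the lower direction, where 15.1% did. Among 38004 tested probes, 137 had a row difference at least as high as that of A_23_P82523, which is 0.36%. The 5th and 95th percentiles were -0.82 and 0.51 over the 9501 probes of its signal bin, out of 4 bins of equal size.

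The ABCB1 row difference was positive for both probes under each alternative run. With normexp it fell to 0.78 for A_23_P82523, and the 2 rows overlapped for A_33_P3332414. Without the CNOT6L shRNA array the limma adjusted p for A_23_P82523 rose to 0.0558, with the difference at 1.29. Over the alternatives that limma adjusted p ran from 0.000123 to 0.0558. The 0.000123 came without scaling, where the difference was 2.05 and the median over all tested probes was 0.64. Among the other alternatives the lowest limma adjusted p was 0.0024, without the non-target array. For A_33_P3332414 the limma adjusted p ran from 0.0162, also without scaling, to 0.622, the latter with normexp, where the difference was 0.14. It also exceeded 0.05 without a filter on dim probes (limma adjusted p = 0.0530) and without the empty vector (0.0713), PARN (0.120), NOC (0.147), CNOT7 (0.157) or CNOT6L (0.170) array. Overall brightness also differed between rows. The 75th percentile of signal was 3194 to 3986 in row 2 and 1366 to 3251 in row 1. The parts of brightness and of slide position in the ABCB1 difference were not tested, and no group lies in both rows.

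**Figure D2:**
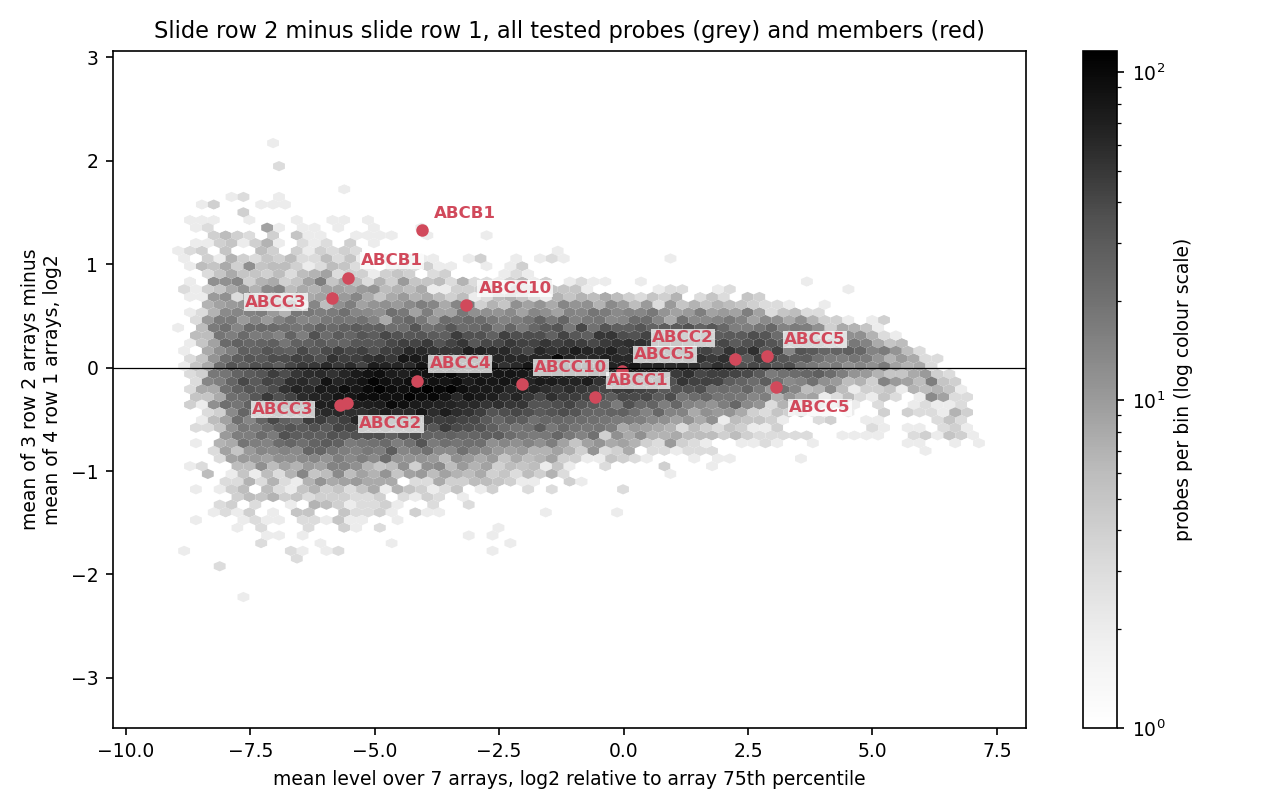
Mean of the 3 row 2 arrays minus mean of the 4 row 1 arrays (y axis, log2) against the mean level over 7 arrays (x axis, log2 relative to the array's 75th percentile) for the 38004 tested probes, shown as grey bins with a log colour scale, and the 13 member probes in red. The ABCB1 probes, at 1.33 and 0.87, are the highest of the members, and ABCC3 and ABCG2 have probes below 0.

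The genes next to ABCB1 on its chromosome were read in the same contrast. ABCB4, its neighbour and a phospholipid transporter of bile, differed by 0.00 between rows (A_33_P3336760, limma adjusted p = 0.995). RUNDC3B, on the other side, differed by 0.25 (A_23_P111724, limma adjusted p = 0.480) and CROT, an acyltransferase of peroxisomes, by 0.58 (A_23_P168669, limma adjusted p = 0.220). No probe of the 4 nearest genes on either side that were on the array passed the limma threshold. Nearest to it were probes lower in row 2. These were of DMTF1, at -0.51 (A_33_P3381943, limma adjusted p = 0.0512), and DBF4, at -0.35 (A_33_P3413523, limma adjusted p = 0.0677). Over the 7 arrays the probes most like A_23_P82523 among 21195 named probes were those of FAM76A (r = 0.996), PPP2CB, a catalytic subunit of protein phosphatase 2A (r = 0.994), and GPX1, a glutathione peroxidase (r = 0.993). Their row differences were 0.83, 0.69 and 0.40. With 7 points in 2 slide rows, such correlations describe the shared row pattern.

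ABCG2, which works as a dimer and exports many anticancer drugs, was dim and its spots disagreed. The level of its probe A_33_P3361067 was -5.09 with the empty vector, -5.60 with the non-target shRNA, -5.73 with the PARN and -5.21 with the CNOT6 shRNA. It was -5.48, -5.87 and -5.92 with the CNOT6L, CNOT7 and NOC shRNAs. Its 2 spots had an SD of 0.70 on the non-target, 0.68 on the CNOT7 and 0.61 on the NOC shRNA array, close to the whole range of 0.83 over the 7 arrays. The processed signal was 36.8 to 95.1. ABCG2 was not called with any shRNA, and its row difference of -0.35 (SE 0.24) had a limma adjusted p of 0.405.

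**Figure D3:**
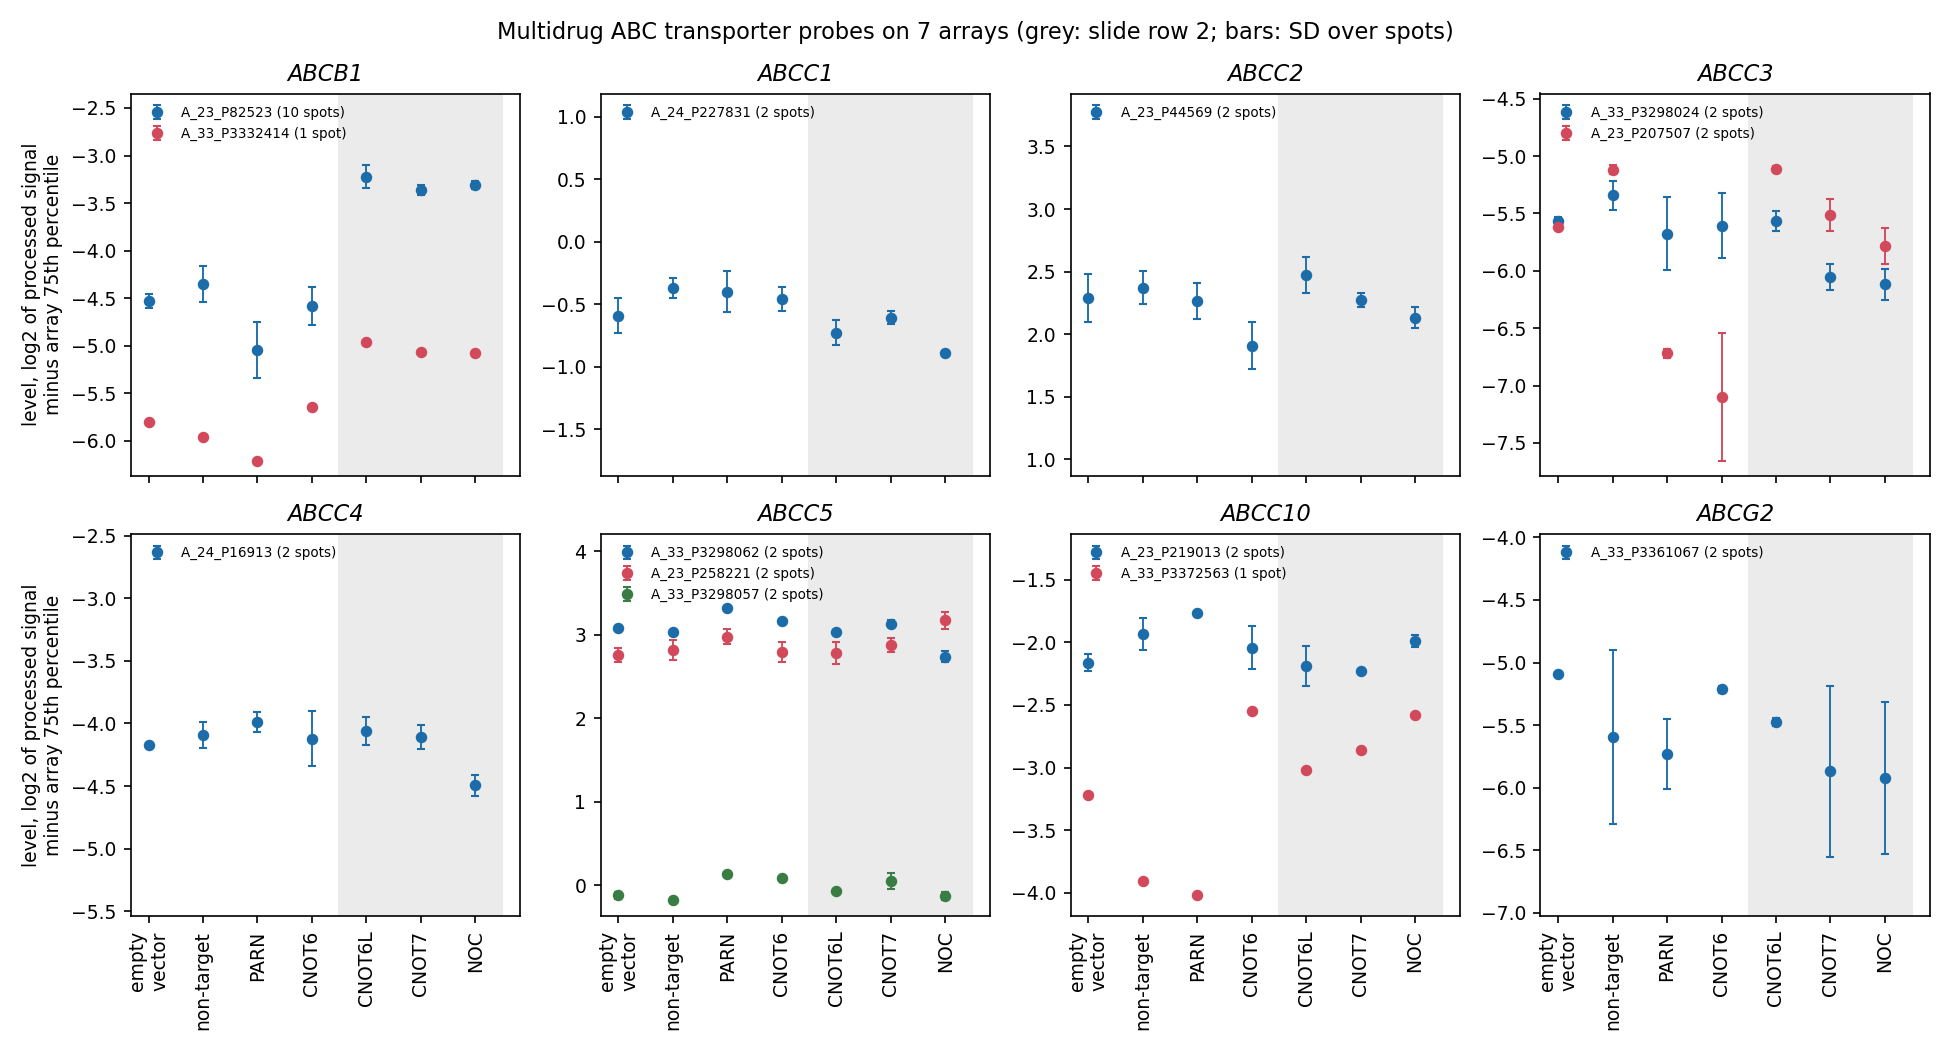
Levels of the 13 member probes (y axes, log2 of processed signal minus the array's 75th percentile) on the 7 arrays (x axes), with 1 panel per gene, 1 colour per probe, slide row 2 shaded and bars for the SD over a probe's spots where it has more than 1. ABCB1 stands higher in row 2 by both probes. Only 1 of the 2 ABCC3 probes lies at least 2-fold below both controls on the PARN and CNOT6 shRNA arrays.

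Among the pumps of organic anions and conjugates, ABCC1 and ABCC2 spanned 0.52 and 0.56 over the 7 arrays, while the ABCC3 probes disagreed. ABCC1, which exports glutathione conjugates, had levels of -0.59 and -0.37 with the empty vector and non-target shRNA, and of -0.40, -0.46, -0.73, -0.61 and -0.89 with the PARN, CNOT6, CNOT6L, CNOT7 and NOC shRNAs (A_24_P227831). The row 2 arrays were the 3 lowest, with the CNOT7 shRNA array at -0.02 against the empty vector, and the row difference of -0.29 (SE 0.11) did not pass (limma adjusted p = 0.132). ABCC2, an apical exporter of bilirubin glucuronides in liver, gave a bright signal of 5127 to 20072. Its levels were 2.29 and 2.37 in the controls and 2.27, 1.91, 2.47, 2.27 and 2.13 in the same order of shRNAs (A_23_P44569). Its lowest array was CNOT6 shRNA. Over all probes above background on every array, dim ones included, the lower quartile of the range was 0.49 and the median 0.71. The range of 0.56 for ABCC2 lay between these.

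ABCC3, a basolateral exporter of glucuronides and bile salts, was called lower by 1 of its probes. The level of A_23_P207507 was -5.62 with the empty vector, -5.12 with the non-target shRNA, -6.72 with the PARN and -7.10 with the CNOT6 shRNA. It was -5.11, -5.51 and -5.78 with the CNOT6L, CNOT7 and NOC shRNAs. The PARN and CNOT6 shRNA arrays were thus below the other 5. Their differences from the empty vector and non-target arrays were -1.10 and -1.60 with the PARN shRNA and -1.48 and -1.98 with the CNOT6 shRNA. This was the only member probe of 13 called lower in each case, where 0.484% and 0.28% of all probes were called lower. No member was called lower with the CNOT6L, CNOT7 or NOC shRNAs, against 0.797%, 1.05% and 1.37% of all probes.

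The other ABCC3 probe, A_33_P3298024, is annotated to another transcript of the gene. Its levels were -5.56 and -5.34 in the controls, -5.68 and -5.61 with the PARN and CNOT6 shRNAs, and -5.56, -6.06 and -6.12 with the CNOT6L, CNOT7 and NOC shRNAs. With the PARN and CNOT6 shRNAs it was also below both controls, but by at most 0.33. The 2 probes had r = 0.08 over the arrays. Both were dim, with processed signals of 9.94 to 105 for A_23_P207507 and 28.1 to 76.4 for A_33_P3298024. On the CNOT6 shRNA array, the dimmest of all, the spots of A_23_P207507 had an SD of 0.56 and 1 of 2 was above background. With normexp the mean change of A_23_P207507 was -0.30 with the PARN shRNA and 0.12 with the CNOT6 shRNA, so that the latter turned its direction. With quantile normalization the PARN call was lost at a mean change of -1.16.

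**Figure D4:**
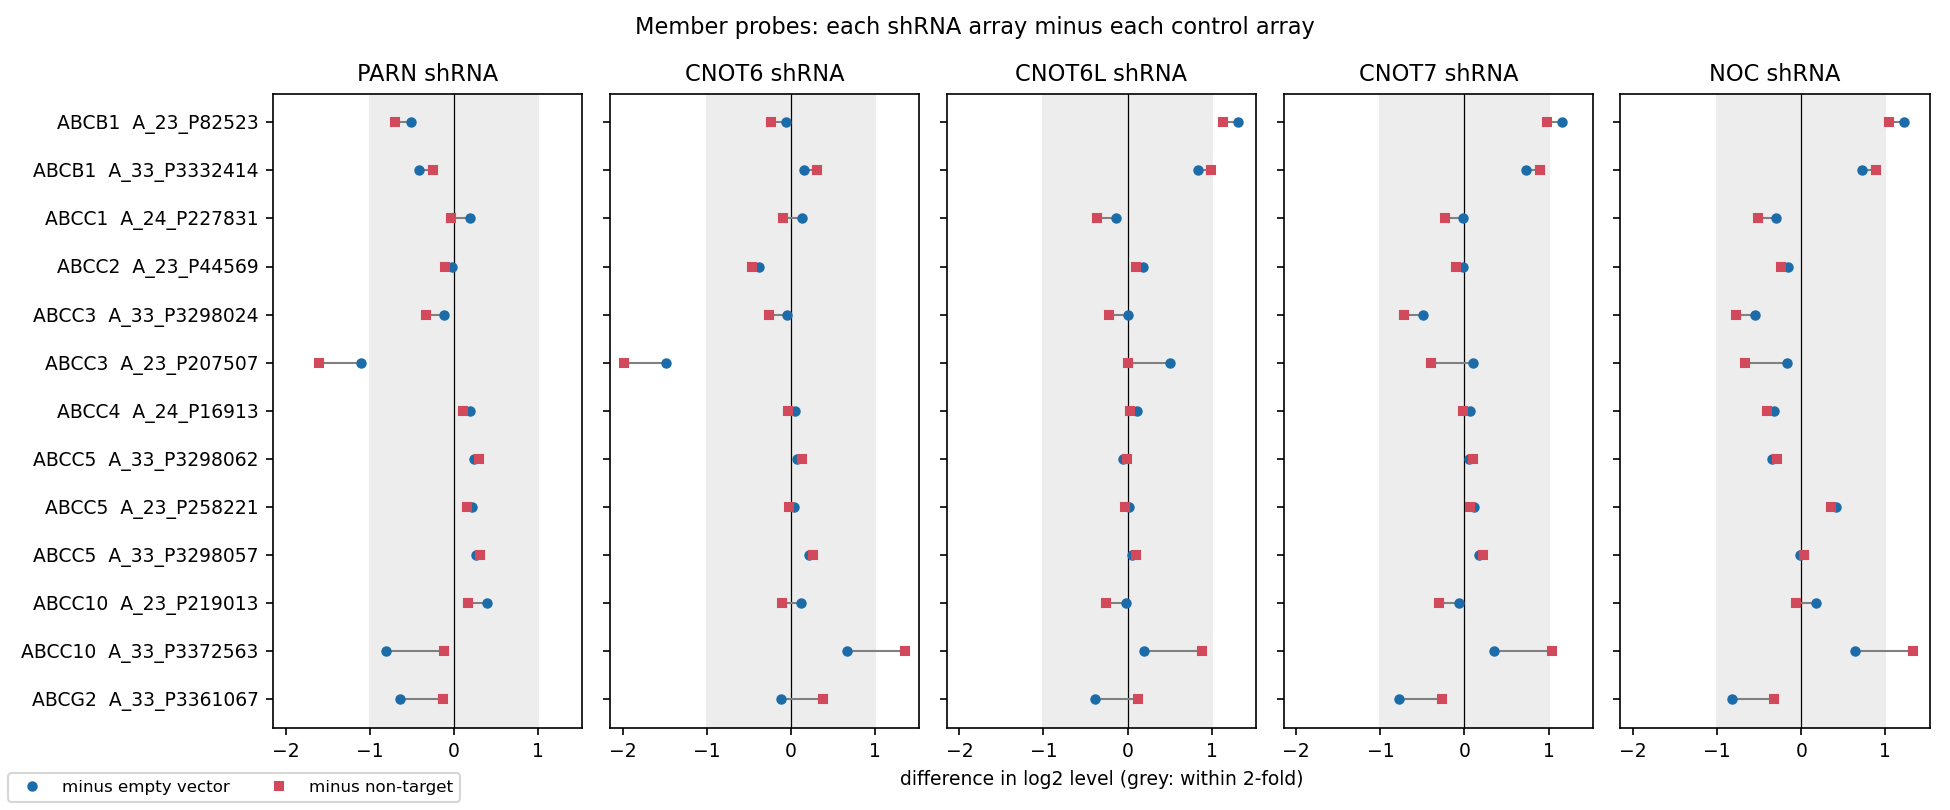
Difference of each shRNA array from the empty vector array (blue circles) and from the non-target array (red squares) for the 13 member probes (x axes, log2), with the range within 2-fold shaded. Both markers lie outside the shading only for ABCB1 A_23_P82523 with the CNOT6L and NOC shRNAs and for ABCC3 A_23_P207507 with the PARN and CNOT6 shRNAs.

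ABCC4 and ABCC5 export cyclic nucleotides and nucleotide analogues. ABCC4 had levels of -4.17 and -4.09 in the controls and -3.99, -4.12, -4.06, -4.11 and -4.50 with the PARN, CNOT6, CNOT6L, CNOT7 and NOC shRNAs (A_24_P16913). The NOC shRNA array was the lowest, at 0.41 below the mean of its row mates, and all 7 arrays spanned 0.51.

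ABCC5 was read by 3 probes. A_33_P3298062 had levels of 3.08 and 3.03 in the controls, 3.33, 3.16, 3.03 and 3.13 with the PARN, CNOT6, CNOT6L and CNOT7 shRNAs, and 2.74 with the NOC shRNA. A_23_P258221 had levels of 2.76 and 2.82 in the controls, 2.98, 2.80, 2.79 and 2.88 with the PARN, CNOT6, CNOT6L and CNOT7 shRNAs, and 3.17 with the NOC shRNA. The NOC shRNA array was the lowest by the former probe and the highest by the latter, at -0.32 and 0.38 against the control mean. A_33_P3298057, which carries the same accession as A_33_P3298062, lay between -0.17 and 0.13 and was at 0.01 against the control mean with the NOC shRNA. The probes therefore disagreed in direction with the NOC shRNA, within 2-fold. With the PARN shRNA all 3 were higher than the control mean, by 0.27, 0.19 and 0.28, also within 2-fold.

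ABCC10, a pump of taxanes and other lipophilic drugs, was read by a pair of probes of 1 transcript. The 2-spot probe A_23_P219013 had levels of -2.16 and -1.93 in the controls and of -1.76, -2.04, -2.19, -2.23 and -1.99 with the PARN, CNOT6, CNOT6L, CNOT7 and NOC shRNAs, a range of 0.46. The 1-spot probe A_33_P3372563 ranged over 1.47, with -3.22 and -3.91 in the controls and -4.02, -2.55, -3.02, -2.86 and -2.58 in the same order. On this probe the controls already differed by 0.69. With the CNOT6 shRNA it was 0.67 above the empty vector and 1.36 above the non-target array, with the CNOT7 shRNA 0.35 and 1.04, and with the NOC shRNA 0.64 and 1.33, so that it passed 2-fold against the non-target array alone in all 3. The other probe moved by between -0.30 and 0.17 from either control on these arrays and r between the probes was -0.61.

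Taking the 5 shRNA arrays against the 2 control arrays, none of the 13 member probes passed the limma threshold, and none of all 38004 tested did (0%), with 1420 at an unadjusted p under 0.05. The member differences ran from -0.68 (SE 0.52) for ABCC3 A_23_P207507 to 0.56 (SE 0.38) for ABCC10 A_33_P3372563, and their lowest unadjusted limma p was 0.179. The spread in this fit is that between different shRNAs and control plasmids. It is not that of repeated transfections.

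The other genes of drug handling gave few calls. Of 48 tested probes of other ABC genes, none was higher with any shRNA, where 0.295% to 0.535% of all probes were. Of these 48, 2 were lower with the PARN shRNA, where 0.484% of all probes were, and 1 with the CNOT7 shRNA, where 1.05% were. ABCA13, of the lipid-transporting ABCA family, was called in both, at -1.02 and -1.08 against the controls with the PARN and at -1.76 and -1.82 with the CNOT7 shRNA. It was not well above background on those arrays, so these sizes are measured differences of dim signals and are uncertain. ABCC6, a hepatic exporter, was lower with the PARN shRNA by 1 of its 4 probes (-1.21 and -1.67 against the controls). Among 31 tested probes of transcription factors and receptors linked to transporter expression, such as NR1I2, NFE2L2 and NFYA, 1 was lower with the CNOT6L shRNA, where 0.797% of all probes were, a probe of the estrogen receptor gene ESR1 (-1.78 and -1.06), which has 3 probes. Among 23 probes of glutathione, glucuronide and sulfate conjugation, 1 was lower with the NOC shRNA, where 1.37% of all probes were, for the glucuronosyltransferase UGT2B7 (-1.26 and -1.31). No probe was called among 28 for drug uptake carriers of the SLC and SLCO families or among 5 for the ezrin and PDZ scaffolds that hold transporters at the membrane. Over all probes, 0.28% to 1.37% were called per shRNA and direction, so counts of 0 in lists this short say little. ABCC6, ESR1 and UGT2B7 are named because their lists had so few calls, after their values were seen. The median change of the 8 transporters, taken at the brightest probe of each, was 0.01, 0.01, -0.07, -0.09 and -0.34 with the PARN, CNOT6, CNOT6L, CNOT7 and NOC shRNAs, beside -0.01, 0.12, -0.01, -0.08 and -0.06 over all probes. The -0.34 comes from 1 array and includes dim ABCC3 and ABCG2 probes. It takes ABCC5 by A_33_P3298062, at -0.32 there, while A_23_P258221 of the same gene was at 0.38. No member probe was called lower with the NOC shRNA.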

How the data were processed

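Per the file headers, the scanner files deposited by the authors came from Agilent Feature Extraction 10.7.3.1 with each spot's intensity given as a processed signal (background already subtracted), a median signal and a local background. The deposited series table holds log2 values centred per probe on the median of the arrays, and its differences between arrays were within 0.02 log2 of those of the scanner files after 1 shift per array. Its scale and direction were found this way and are not stated in the sources used here.

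The 58717 gene spots were taken as log2 processed signal minus the 75th percentile of the array, without control spots and spots marked as outliers, and averaged to 42405 probes. A probe was above background on an array where at least 50% of its spots were marked so. Symbols came from the transcript accessions through a RefSeq table of GRCh38.p14, used for names only, which named 24827 probes. For CNOT6 the labels' accession, with its leading zero put back, gave the probe. GSTA1, UGT1A1, SULT1A1 and ABCF2 were matched by no probe.

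With 1 array per group a lone shRNA was judged by the 2-fold rule. The brighter array had to be above background. A dimmer array below it was raised to the array's lowest value above background where its own was lower still. The groups of several arrays were compared by limma 3.58.1 in R 4.3.3 (lmFit, eBayes with a trend), two-sided, with Benjamini-Hochberg adjustment at 0.05 over probes that were above background on 2 or more arrays, after tests on simulated data. Nothing in the labels says that arrays came from separate cultures, and precision is limited by how few arrays there are.

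The members and lists were chosen with earlier results of these data known. Named genes were every member probe, the targeted genes, list genes called with 2 or more shRNAs in 1 direction or at least 4-fold with any, and, for each member whose brightest probe was above background on every array and spanned at least 1 log2 unit, the 3 genes with the highest Pearson r to it. Alternatives were quantile normalization, normexp with an offset of 50 on the median signal, the series table, no scaling, a 4-fold threshold, the filters on outlier spots and dim probes, either control alone, the slide row as a term, eBayes without a trend and each array left out.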

Additional observations from a re-analysis of the deposited data

How the results depend on the processing

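No paired analysis was possible because every array carries replicate number 1, so the groups share only that number. Against both controls, the number of member probes called lower became 0 for the PARN shRNA with the 4-fold threshold, quantile normalization, normexp and limma, and for the CNOT6 shRNA with the 4-fold threshold, normexp and limma, while no scaling gave 3 for the CNOT6 shRNA. These limma runs assume that the lone array varies like the controls, have 1 residual degree of freedom and called 0 to 2 probes higher and 0 to 9 lower of all tested, so their 0 counts say nothing about the calls. The number called higher became 0 for the CNOT6L shRNA with the 4-fold threshold, normexp and limma, and for the NOC shRNA with those and with quantile normalization, where the mean difference of ABCB1 A_23_P82523 was 1.27, above the main 1.13, but not 2-fold against each control. For the CNOT7 shRNA, where 0 were called, no scaling gave 2 and the series table gave 1. With either control alone, the number called higher was 0 to 1 for the CNOT6 shRNA, 1 in each case for the CNOT7 shRNA and 1 to 2 for the NOC shRNA, the added probe being ABCC10 A_33_P3372563 against the non-target array and ABCB1 A_23_P82523 against the empty vector. Between the controls, 1 probe was lower with quantile normalization (ABCC3 A_23_P207507) and 1 higher without scaling (ABCC10 A_33_P3372563). For row 2 against row 1, 4 member probes were higher without scaling, where 5169 of all 38004 tested were, beside 920 in the main run. Without scaling, the median row difference over all tested probes was 0.64. With normexp 1 member probe was higher, where 1544 of 38004 were. Without a filter on dim probes it was 1, where 835 of 42309 were. Leaving out each array gave 0 to 2 member probes. The 0 came only without the CNOT6L shRNA array, where 38 of 37731 passed as higher. ABCC3 A_23_P207507 for the CNOT6 shRNA turned to 0.12 with normexp, and the cause of these changes was not tested. The other 187 counts recomputed stayed within 1.5 times the main count. Most of these were 0 beside a main count of 0, such as all counts against slide-row mates, and so say little about stability.

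The dim signals of ABCG2, ABCC3 and both ABCB1 probes limit what small changes can be read, and slide row 2 has no control array. With 1 array per group, the spread between transfections is unknown for every member.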
